A study of Mus musculus with 230 samples.

Results

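Sprr1a encodes a small proline-rich protein, best known as a precursor of the cornified envelope, the cross-linked protein shell that transglutaminases build under the membrane of squamous epithelial cells. It sits in the epidermal differentiation complex, a cluster of genes of the same function on mouse chromosome 3. In adult sensory neurons the gene is known for being switched on after peripheral nerve damage, and its protein has been placed on actin in growing axons, so it is counted among the regeneration-associated genes. The 1 gene described here was taken from a table of 53278 genes and was chosen by its injury difference, the largest in earlier results of the same low-input libraries. Its injury difference is therefore given as a description, without a test, while its ages, its levels in single neurons, its neighbours and the genes that varied with it were examined beside it.

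The samples were dorsal root ganglion (DRG) sensory neurons of mice from a cross of the strains C57BL/6 and CAST/Ei, either after sciatic nerve injury or intact. Single neurons were hand-picked after enzymatic dissociation of L4 and L5 ganglia, which send axons into the sciatic nerve. There were 18 low-input RNA libraries, each from a small input of neurons, with 3 injured and 3 intact at 1, 8 and 12 months of age, and 69 single-cell libraries made from the cytoplasm of 1 neuron each, from injured and intact ganglia of mice of 1 month and 1 year. The sex, the time after surgery, the animal behind a library and the number of neurons in a low-input library are not in the labels. P-values therefore measure the spread between libraries, which may in part be technical. Before their number, names of intact libraries and cells carry l or L and those of injured ones r or R. The labels do not explain this code, and it cannot be told apart from the condition. The main fit did not pair libraries.

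Levels are given as CPM (counts per 1e6 counts) of the counts outside CT010467.1, a ribosomal RNA-like locus that took 29.4% to 93.8% of the gene counts of a low-input library. Outside it the 18 libraries held 770328 to 11587094 counts. The second intact 12-month library stood apart, with the lowest of these totals, 93.8% of its counts on CT010467.1 and 40.5% of the rest from mitochondrial genes. Neuronal markers were high in both conditions, with a summed level of 10 genes of 16800 to 24200 CPM in the injured set and 5030 to 23100 CPM in the intact set. The summed level of 9 satellite glia markers was 607 to 5780 CPM (injured) and 392 to 2040 CPM (intact), and that of 9 Schwann cell markers was 791 to 1370 and 287 to 2320 CPM. Keratinocyte markers, the genes of the cells in which Sprr1a is best known, summed over 10 genes to 2.07 to 12.9 CPM (injured) and 1.68 to 17 CPM (intact). The summed level of 7 fibroblast and vessel markers was 45.5 to 154 CPM (injured) and 0 to 50.6 CPM (intact). In the comparison of injured with intact libraries over all ages, Tubb3 of the neuronal markers was called higher (log2 difference 0.99, edgeR adjusted p = 0.0236). Rbfox3 (-1.16, edgeR adjusted p = 0.042) and Prdm12 (-1.58, edgeR adjusted p = 0.0189), also neuronal markers, were called lower. Col1a2 of the fibroblast and vessel markers (3.93, edgeR adjusted p = 0.0254) and Fbln2 of the satellite glia markers (4.08, adjusted p = 0.0241) were called higher in injured libraries. The part of these other cell types in the results on Sprr1a was not tested.

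The gene is small. In the GENCODE vM16 annotation that the counts used (mouse build mm10) Sprr1a lies on the minus strand of chromosome 3 from 92483952 to 92485895, with exons of 46 and 760 bp and 806 bp of exon in all. The 236 bases that precede its annotated start, chr3:92485896-92486131 on the minus strand, are printed from RefSeq's promoter table (build GRCm38.p6) because they hold repeats of one motif that returns below. Capitals mark the AP-1 motif TGANTCA, which Jun, Fos and Atf3 dimers are known to bind, and the TATA box TATAAA.

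Sprr1a: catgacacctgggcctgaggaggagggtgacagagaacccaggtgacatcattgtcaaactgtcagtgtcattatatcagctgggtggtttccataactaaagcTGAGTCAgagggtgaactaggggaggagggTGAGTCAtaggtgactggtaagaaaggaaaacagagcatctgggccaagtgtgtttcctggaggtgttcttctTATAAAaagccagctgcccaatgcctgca

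The AP-1 motif occurred 2 times, starting 146 and 116 bases before the RefSeq start, and the TATA motif 1 time, 43 bases before it. Searched on both strands, at least 1 AP-1 motif was found in 7.81% of all 32851 promoter windows of 300 bases (250 before to 50 after a start), 2 or more in 0.46%, and TATAAA in 13.6%. The Sprr1a window held no CRE (TGACGTCA), STAT (TTCNNNGAA), C/EBP (TTGCNNAA) or ETS (CCGGAAGT) motif, which were found in 1.79%, 8.3%, 10.8% and 3.89% of windows. It also held no CpG, the dinucleotide that carries most DNA methylation in mammals. The median window held 7, and 5.43% of windows held none. A match of letters is a description of the sequence and says nothing of which factor bound there.

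In the low-input libraries Sprr1a separated injured from intact neurons without overlap. At 1 month the 3 injured libraries held 1638, 670.7 and 541.2 CPM (10654, 4208 and 2454 counts), and the 3 intact ones 0.347, 0 and 0 CPM (2, 0 and 0 counts). At 8 months the injured libraries held 151.0, 1642 and 901.9 CPM (654, 9890 and 5222 counts), and the intact ones 0.25, 0 and 1.53 CPM (1, 0 and 7 counts). The first injured 8-month library was the lowest of the 9 injured ones. At 12 months the injured libraries held 1462, 2705 and 1798 CPM (9194, 18426 and 9612 counts), and the intact ones 1.05, 0 and 1.68 CPM (5, 0 and 3 counts). The lowest injured library was thus 90-fold above the highest intact one.

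**Figure D1:**
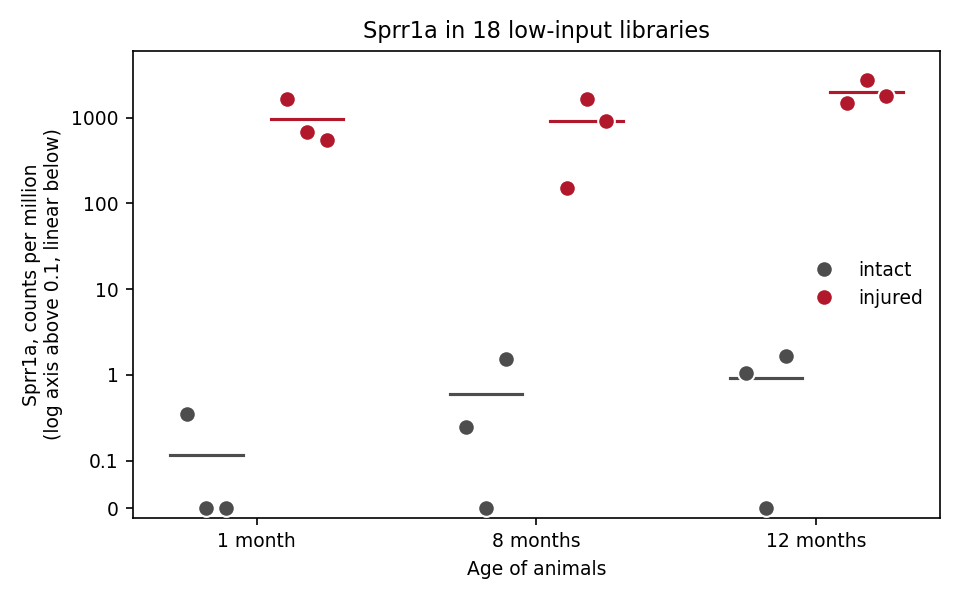
Sprr1a in each low-input library, in CPM of the counts outside CT010467.1 (vertical axis, logarithmic above 0.1 and linear below), by age; points are libraries, 3 per group, and bars are group means. All 9 injured libraries lie at 151.0 CPM or more and all 9 intact ones at 1.68 CPM or less.

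Over all ages injured libraries averaged 1279 ± 785 CPM and intact ones 0.539 ± 0.691 CPM (SD, n = 9 each). The 4 intact libraries with no count allow up to 0.259 to 3.89 CPM, taking 3 counts as the limit that a count of 0 allows (counting error only). In counts the injured to intact ratio was 11900 at 1 month, with an exact counting interval of 3310 to 98600 because it rests on 2 intact counts. It was 1540 (781 to 3570) at 8 months and 1680 (851 to 3890) at 12 months. The fitted log2 difference averaged over ages was 11.39 ± 0.69 (SE), the first of 14212 tested genes by size. It was 13.04 ± 1.27 at 1 month (first), 10.49 ± 1.12 at 8 months (rank 5) and 10.65 ± 1.18 at 12 months (rank 10), values that depend on how a few intact counts are treated. Without the first intact 1-month library, which held all counts of its group, the 1-month value was 15.28, and without the third intact 8-month library that of 8 months was 12.54.

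Per length, Sprr1a was among the most abundant transcripts of injured neurons. Ranked by CPM per kb of exon, it held rank 9, 46 and 50 in the injured 1-month libraries, 287, 10 and 23 at 8 months, and 10, 5 and 7 at 12 months. The first injured 1-month library had 18756 genes detected. The rank of 287 belonged to the same 8-month library that was lowest in CPM.

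The question of age was whether injured neurons of older mice reached the same level. Group means were 949.8 ± 599 CPM at 1 month, 898.2 ± 745 at 8 months and 1988 ± 643 at 12 months (SD, n = 3 each), and the ranges of 1 and 8 months overlapped with that of 12 months. In edgeR's quasi-likelihood test with Benjamini-Hochberg adjustment over all genes, Sprr1a did not pass a threshold of 0.05 in any of the 3 age contrasts within injured libraries. The log2 difference of 8 against 1 month was -0.04 ± 0.70 (SE; 95% interval -1.53 to 1.45; adjusted p = 1). For 12 against 1 month it was 1.06 ± 0.71 (-0.45 to 2.57; adjusted p = 1), and for 12 against 8 months 1.09 ± 0.71 (-0.41 to 2.60; adjusted p = 1). The width of these intervals shows what 3 libraries per age could resolve.

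An exact permutation test over all 1680 divisions of the 9 injured libraries into 3 ages gave p = 0.282 (two-sided by construction), and 0.111 to 0.571 when each library was left out in turn. As a background, the same age contrasts called 0.225% of 14212 genes for 8 against 1 month, 0.113% for 12 against 1 and 0.0633% for 12 against 8. The difference of the injury effect between ages was -2.55 ± 1.62 (-5.98 to 0.87; adjusted p = 1) for 8 minus 1 month, -2.39 ± 1.63 (-5.84 to 1.05; adjusted p = 0.97) for 12 minus 1, and 0.16 ± 1.78 (-3.60 to 3.92; adjusted p = 1) for 12 minus 8 in edgeR. The joint test over the 3 ages gave an adjusted p of 0.858. With edgeR these interaction tests called 0.00704%, 0%, 0% and, for the joint test, 0% of genes, with 714, 837, 1607 and 1161 genes at an unadjusted p under 0.05. DESeq2 called 34, 33, 303 and 207 genes, Sprr1a not among them.

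The relatives of Sprr1a stayed at or near 0. Of 15 other Sprr genes in the table, which share its proline-rich repeats and its role in the cornified envelope, 7 had no count in any low-input library and 1 had enough counts for the test. That gene, Sprr1b, the closest relative by name, held 238 counts in 5 of 9 injured libraries and 0 in the 9 intact ones. Its counts were 58, 0 and 2 in the injured 1-month libraries, 0, 0 and 66 at 8 months, and 0, 40 and 72 at 12 months. The pooled injured level was at least 67.2-fold higher than 3 counts over all intact libraries would give, and its edgeR log2 difference of 7.48 ± 2.12 did not pass the threshold (adjusted p = 0.0682). Per kb of exon, Sprr1b averaged 5.37 and Sprr1a 1590 CPM in injured libraries. Sprr2j-ps, a pseudogene of the family named here after its values were seen, had 7, 24 and 5 counts in the 3 injured 12-month libraries and none in the other low-input ones. The Sprr2 genes are near-identical copies, so the counts of single members are uncertain.

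Many genes around Sprr1a had no count as well. In a window of 500 kb to each side, chosen after the data were seen, lie 66 other genes of the table, and 35 of them had no count in any low-input library. A mean of 1 CPM in injured libraries was reached by 7, and 6 were tested, beside 14212 tested among all 53278 genes. The share of all genes without any count was not computed. The zeros here and among the Sprr genes are therefore not set apart from those of the whole table. The highest was Gm4202, 204 kb away, at 125 CPM per kb in injured and 123 in intact ones (log2 difference 0.04, adjusted p = 0.949 in edgeR). Lce1g, a late cornified envelope gene 266 kb away that is named after its values were seen, was the 1 called neighbour, with 71 injured and 4 intact counts (log2 difference 4.11, adjusted p = 0.0296 in edgeR). Over all tested genes 726 (5.11%) were called higher and 152 (1.07%) lower in injured libraries in this comparison. Scaling to ERCC spike-ins moved the injury difference of the median gene up by 2.86 on the log2 scale and called 13492 genes higher and 1 lower, so directions here are relative to the bulk of genes.

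**Figure D2:**
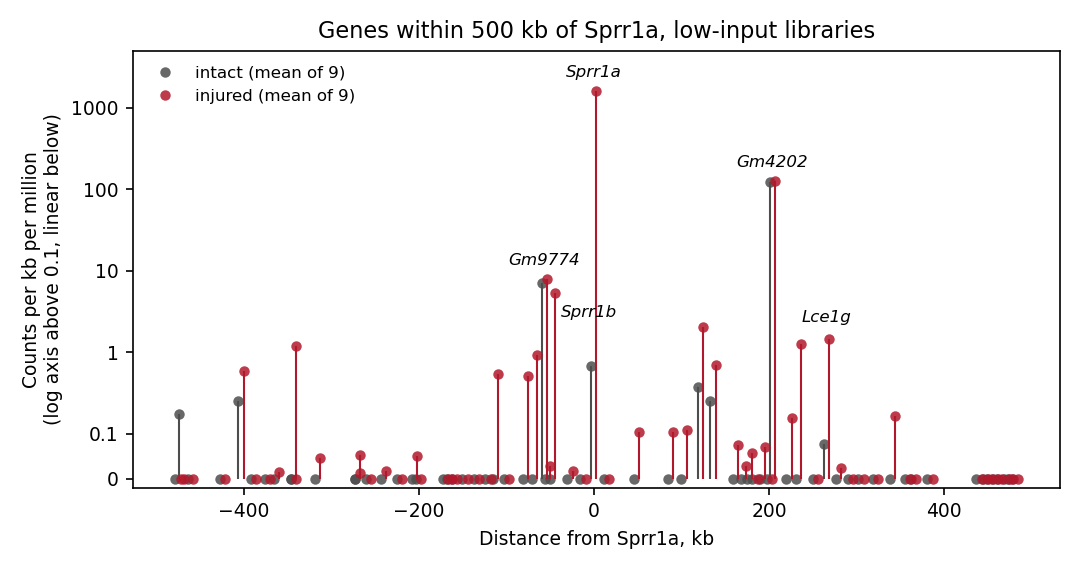
Mean level of each gene within 500 kb of Sprr1a in the 9 intact and 9 injured low-input libraries, in CPM per kb of exon (vertical axis, logarithmic above 0.1 and linear below), against the distance of its start from that of Sprr1a in kb. Sprr1a stands at 1590 in injured libraries, and the next gene, Gm4202, at 125.

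Some of the near-silent relatives carry the same promoter motif. Promoter windows were found for 13 of the 15 other Sprr genes, and 8 of them held an AP-1 motif, 61.5% of these windows against 7.81% of all windows; these genes arose by duplication and their sequences are not independent. The windows around the motifs of Sprr1a, of Sprr1b, and of Sprr2d and Sprr2h as examples of the Sprr2 genes are set side by side, with the motif in capitals.

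Sprr1a, 146 bases before its start: taactaaagcTGAGTCAgagggtgaac
Sprr1a, 116 bases before its start: gggaggagggTGAGTCAtaggtgactg
Sprr1b, 111 bases before its start: gcacctaggaTGAATCAtgtctgacag
Sprr2d, 193 bases before its start: gagtgctcacTGAGTCAcaggtctcaa
Sprr2h, 198 bases before its start: ggatggtctcTGAGTCActgcacttta

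These lie on chromosome 3 of GRCm38.p6, at 92486011 to 92486037 and 92485981 to 92486007 for Sprr1a and 92438874 to 92438900 for Sprr1b (minus strand), and at 92338937 to 92338963 for Sprr2d and 92385477 to 92385503 for Sprr2h (plus strand). Of the 13 windows, that of Sprr2k also held 2 matches, and those of Sprr3, Sprr4 and the 3 Sprr2a genes held none.

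The cornified envelope genes, which encode the other proteins of the epidermal shell and the enzymes that link it, had few counts. Of 31 genes, 7 had enough counts for the test, 1 was called higher, against 5.11% of all tested genes, and none lower (median log2 difference 0.66, against 0.03 over all tested genes). The called gene was Tgm5, a transglutaminase, which averaged 3.29 ± 3.32 CPM after injury against 0.148 ± 0.290 CPM without it (SD, n = 9 each; log2 difference 5.4 ± 1.16 (SE), edgeR adjusted p = 0.0140). With the replicate number as a block no gene of this list was called, Tgm5 included. Loricrin (Lor) had a log2 difference of 1.88, Tchh of 2.74, Sfn of 0.66, Evpl of -1.84, and the keratins Krt1 and Krt10 of -0.21 and -0.15. None of these 6 passed the test. All were low, at 4.08 CPM or less on average in either condition.

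Of 13 S100 genes, calcium-binding proteins whose cluster lies in the same region of chromosome 3, 8 were tested and 1 was called higher, against 5.11% of all tested genes. It was S100a11, which rose from 17.9 ± 8.38 to 147 ± 51.5 CPM (log2 difference 2.91 ± 0.30, edgeR adjusted p = 2.632e-05). The other 7, S100a1, S100a3, S100a6, S100a7a, S100a10, S100a13 and S100a16, had log2 differences of -0.95 (S100a6) to 2.76 (S100a3) and did not pass. The list's median was 0.51.

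Regeneration-associated genes, a list of 45 others known from injured peripheral neurons, shifted with Sprr1a. Of 42 tested, 33 were called higher in injured libraries and none lower, 33 of 42 against 5.11% of all genes, with a median log2 difference of 2.49. The list was drawn up with earlier results of these data known, so its direction is not independent evidence. The 4 largest differences were those of secreted peptides. Nts, neurotensin, averaged 491 ± 197 CPM after injury and 0.370 ± 0.481 CPM without it (log2 difference 10.10 ± 0.60, edgeR adjusted p = 3.516e-08). Gal (galanin) had a log2 difference of 9.87, Npy (neuropeptide Y) of 9.69 and Ucn (urocortin) of 9.46. Sprr1a, at 11.39, lay above each of them, which follows from its choice by the largest injury difference.

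The factors and cytokine receptors placed upstream of injury genes overlap with that list. Of 22 tested out of 24, 7 were called higher, against 5.11% of all tested genes, and none lower, with a median log2 difference of 0.80. The 6 genes that also stand in the regeneration list, Atf3, Jun, Sox11, Klf6, Crem and Smad1, made up all of these calls but Fosl1. Atf3, a stress-induced partner of AP-1 proteins, rose from 13.3 ± 14.9 to 751 ± 361 CPM (log2 difference 5.76 ± 0.56, edgeR adjusted p = 1.81e-05). Fosl1, an AP-1 subunit, rose by 3.83 ± 0.78 (adjusted p = 0.00652) and Sox11, a factor of developing neurons, by 3.11 ± 0.58 (adjusted p = 0.00389) on the log2 scale in edgeR. Batf3, at 2.41 ± 0.95, did not pass (adjusted p = 0.157).

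Actin and growth cone genes, the setting in which the neuronal role of Sprr1a has been described, had a share of calls near that of all genes. Of 28 tested, 1 was called higher, against 5.11% of all tested genes, and none lower (median log2 difference 0.14). It was Fscn1, fascin, which bundles actin filaments in growth cones and rose from 3.26 ± 5.58 to 120 ± 29.9 CPM (log2 difference 7.46 ± 0.40, edgeR adjusted p = 1.264e-08). The next largest, Marcksl1 at 3.13 ± 1.14, Cap2 at 1.25 ± 0.67 and Marcks at 1.01 ± 0.31, had adjusted p-values of 0.123, 0.313 and 0.0603.

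**Figure D3:**
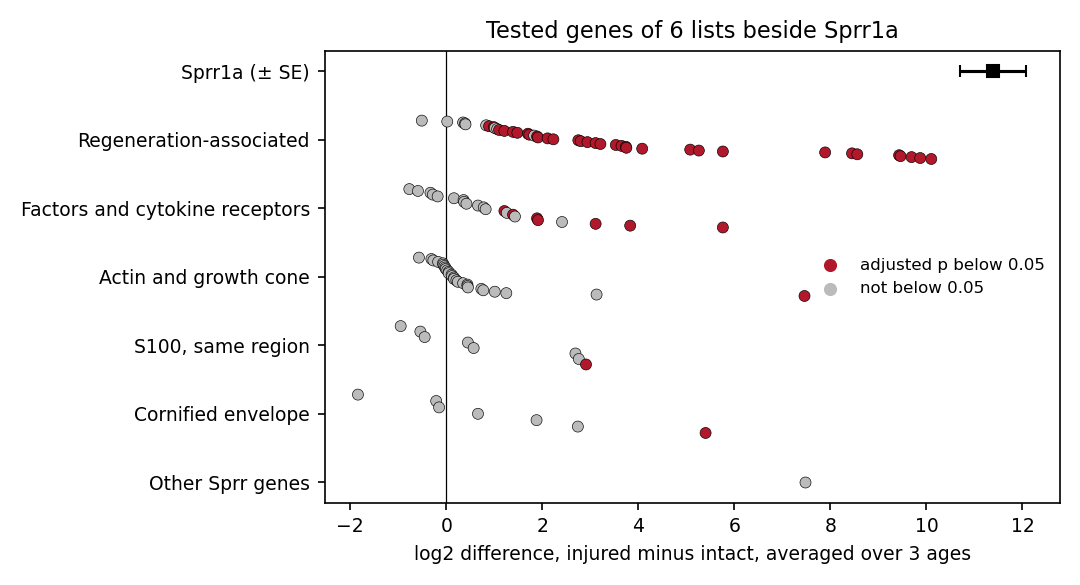
Fitted log2 difference, injured minus intact and averaged over 3 ages (horizontal axis), of every tested gene of 6 lists, with Sprr1a and its standard error on top; each point is a gene, red where the adjusted p was below 0.05. The red points are dense among regeneration-associated genes (33 of 42) and single among actin, S100 and cornified envelope genes.

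In single neurons Sprr1a ranged from no count to 8059 CPM. Cells of at least 50000 counts outside CT010467.1 numbered 18 of 21 injured and 13 of 18 intact at 1 month, and 18 of 22 injured and 8 of 8 intact at 1 year. Each group counts as 1 sample, since the labels do not tie cells to animals, so no test between groups was made. Binomial intervals of shares cover the drawing of cells, taken as independent. Poisson intervals of pooled levels and intervals of single cells cover counting error. None of them covers the spread between animals. Among injured 1-month cells 8 of 18 (44.4%, exact binomial interval 21.5% to 69.2%) held at least 10 CPM of Sprr1a and 6 held at least 1000. Among intact 1-month cells 1 of 13 (7.69%, 0.195% to 36%) held at least 10 CPM. At 1 year these were 2 of 18 injured cells (11.1%, 1.38% to 34.7%) and 0 of 8 intact cells (an upper bound of 36.9%).

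All of the 1-month cells with much Sprr1a came from L4. Of 11 deep injured L4 cells, 6 held 8059, 7282, 7123, 3610, 3444 and 1425 CPM, 1 held 303 CPM (24 counts), and the other 4 held 28, 8.35, 6.33 and 0 CPM. The 7 deep injured L5 cells held at most 2.40 CPM, with counts in 2 of them. Pooled, L4 cells were at 3800 CPM (exact Poisson interval 3780 to 3830) and L5 cells at 0.831 CPM (0.521 to 1.26). The deep L5 cells had a median of 2853527 counts and the L4 cells 713836. Whether the cells of L4 and L5 came from the same mice is not in the labels, and the ganglion and the animal cannot be told apart.

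**Figure D4:**
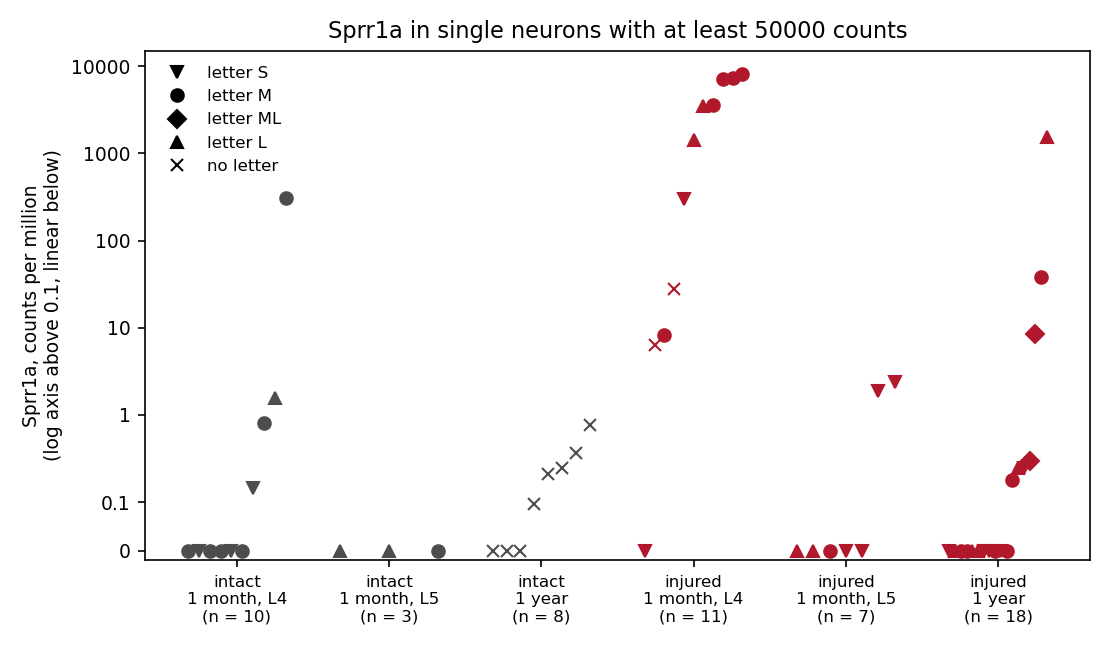
Sprr1a in each single neuron of at least 50000 counts, in CPM of the counts outside CT010467.1 (vertical axis, logarithmic above 0.1 and linear below), by condition, age and ganglion; symbols give the letter in the cell's name. The 6 highest injured L4 cells lie between 1425 and 8059 CPM, no injured L5 cell is above 2.40 CPM, and 1 of 18 injured 1-year cells is above 1000 CPM.

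Cell names carry the letters S, M, ML or L, which the labels do not explain. A lower-case m was read as M, as in the injured L4 cell at 3610 CPM. At 1 month 4 of 6 deep injured cells with M and 2 of 4 with L were at 1000 CPM or more, and none of 6 with S. Within L4 these were 4 of 5 with M, 2 of 2 with L and 0 of 2 with S. The 2 deep injured L4 cells without a letter held 28 and 6.33 CPM. Most cells with S came from L5, where no cell was above 2.40 CPM, and letter and ganglion were not balanced. The highest cell with S was the L4 cell at 303 CPM. At 1 year 1 of 5 cells with L was at 1000 CPM or more, and none of 5 with S, 6 with M or 2 with ML.

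The 1-year injured cells were far below the low-input libraries of that age, a difference that was not tested. Where 12-month injured libraries averaged 1988 CPM, the 18 injured 1-year cells had a mean of 89 CPM and a pooled level, weighted by depth, of 5.37 CPM (4.91 to 5.86), and 11 of them had no Sprr1a count. A cell with the letter L held 1554 CPM (291 counts; exact interval 1380 to 1740), the next 38.7 CPM (5 counts) and another 8.39 CPM (192 counts in the deepest cell of all, 22890735). Both of the upper cells had most of their counts on CT010467.1, 97.2% and 97.3%. Without the highest cell the pooled level was 2.21 CPM. The ganglion of these cells is not in their names.

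A single intact neuron stood out. An L4 cell of 1 month with the letter M held 304 CPM (29 of 95399 counts; 204 to 437), and without it the pooled level of intact 1-month cells fell from 0.912 to 0.111 CPM. The same cell had the highest Atf3 (335 CPM, median 42.7) and the highest Npy (31.4 CPM, median 0) of the 21 deep intact cells. Of 3 other genes looked up in it, Gpr151 was at 31.4 CPM (highest intact cell 61.1), Tubb6 at 52.4 CPM (highest 61.4) and Nts at 0, so none of these was highest there. This cell was the shallowest of the deep intact ones. At its depth 31.4 CPM is 3 counts, the limit that a count of 0 allows, for Npy as for Gpr151. The cell was kept in the group its label gives, and whether that label is right was not tested. All other deep intact cells held at most 1.58 CPM of Sprr1a.

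Across the 36 deep injured cells, 14899 genes with counts in at least 25% of cells were ranked by Spearman's rho with Sprr1a. The cells share library type and 2 ages, and 17 of them had no Sprr1a count, so the values describe these cells and carry no test. The median gene had a rho of -0.056, and 5% of genes lay above 0.323. Sprr1a itself had a rho of -0.149 with depth, -0.151 with the number of genes detected, -0.309 with the share of CT010467.1 and -0.27 with the mitochondrial share.

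The 12 highest were Npy (0.808), Car1 (0.783), Lipn (0.769), Gpr151 (0.737), Ctla2a (0.733), Nts (0.690), Car3 (0.675), Abcf1 (0.674), Brinp3 (0.661), Rasgrf2 (0.654), Cckbr (0.649) and Nsg1 (0.647). Npy was at 400 to 6230 CPM in the 7 cells with at least 1000 CPM of Sprr1a and at no more than 134 CPM in the other 29. Gpr151, an orphan receptor of habenular and injured sensory neurons, was at 58.7 to 917 CPM in the 7 and at no more than 44.6 CPM in the others. Nsg1, an endosomal protein of neurons, was at 785 to 1350 CPM in the 7 and at no more than 516 CPM elsewhere. Rasgrf2 was at 85.4 to 976 CPM in the 7 and at no more than 74.2 CPM in the others. Each of these genes thus parted the same cells without overlap. They were picked by their rho in these same cells, so this follows in part from the choice. The share of all ranked genes that part the cells was not computed.

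Other leading genes crossed that line. Car3, a carbonic anhydrase better known from muscle, ranged from 10.7 to 1640 CPM in the 7 cells and reached 63.2 CPM in the rest. Nts ranged from 53.4 to 1680 CPM in the 7 but reached 2210 CPM in another cell, an L4 cell whose Sprr1a was 8.35 CPM and whose counts were 68.3% mitochondrial. Brinp3 and Ctla2a were at 0 in at least 1 of the 7. Abcf1, a translation factor, differed little, with a median of 108 CPM in the 7 and 51.4 CPM in the other cells.

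**Figure D5:**
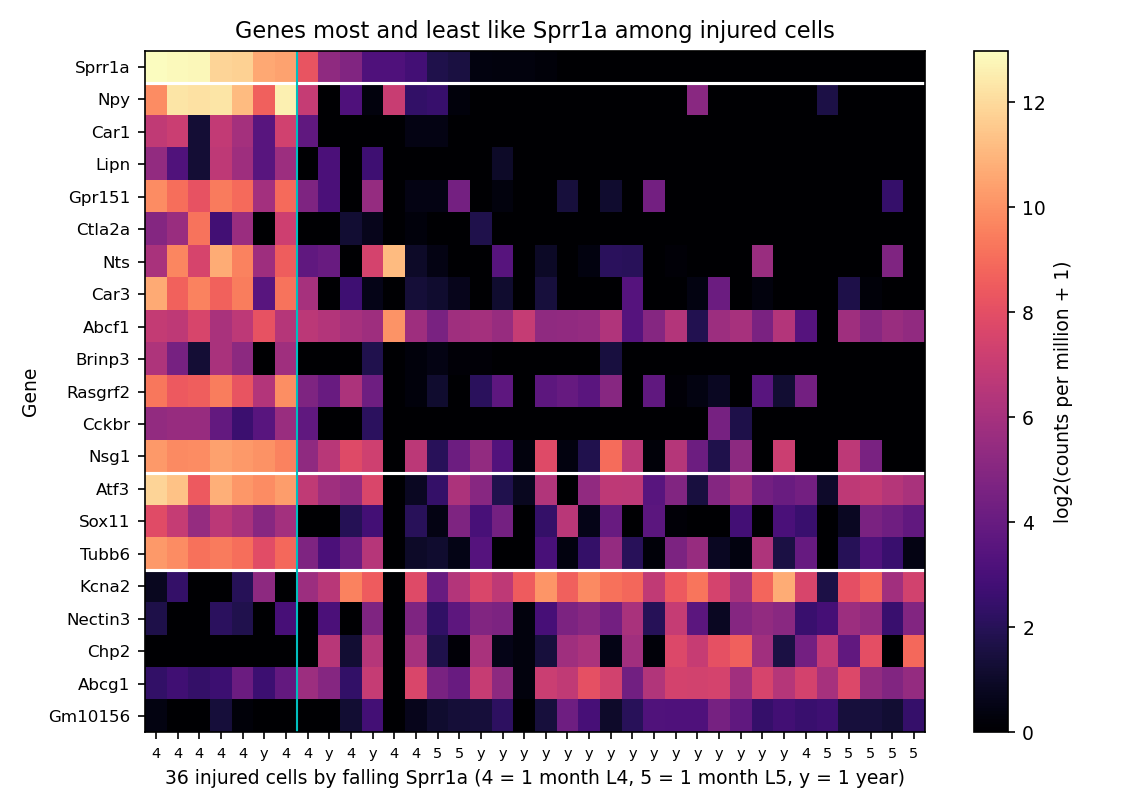
Levels of Sprr1a, of the 12 genes most like it, of Atf3, Sox11 and Tubb6, and of the 5 least like it (rows) in 36 injured cells ordered by falling Sprr1a (columns), as log2(CPM + 1); the vertical line closes the 7 cells of at least 1000 CPM. Npy, Gpr151, Nsg1, Atf3 and Tubb6 are high to the left of the line, and Kcna2, Abcg1 and Chp2 mostly to its right.

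At the other end were Gm10156 (-0.760), Abcg1 (-0.659), Chp2 (-0.645), Nectin3 (-0.633) and Kcna2 (-0.605). Kcna2, a potassium channel subunit of juxtaparanodes and axons, had a median of 0.706 CPM in the 7 cells and 228 CPM in the other 29. Chp2, a calcineurin-like calcium sensor, had no count in any of the 7 and a median of 54 CPM in the others. Abcg1, a cholesterol exporter, had medians of 5.34 and 81.9 CPM.

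The 12 genes were then looked up in the low-input libraries, which the ranking had not used. All 12 had enough counts for the test and 10 were called higher in injured libraries (background 5.11%), none lower, with a median log2 difference of 6.70. The exceptions were Abcf1 at 0.13 ± 0.18 (edgeR adjusted p = 0.734) and Brinp3 at 1.22 ± 0.75 (adjusted p = 0.393). Car1 rose from 0.304 ± 0.373 to 42.9 ± 25.9 CPM, a log2 difference of 7.83 ± 0.89 (adjusted p = 0.000112 in edgeR). Of the 12, 4 are in the regeneration-associated list, which was drawn up with earlier results known: Npy, Gpr151, Nts and Cckbr. For the same 4 the low-input injured and intact libraries did not overlap. The share of all tested genes without overlap was not computed, so this is no trait of the 12. Of the 5 genes least like Sprr1a, all 5 were tested and none was called, with a median log2 difference of -0.04. Kcna2, for one, averaged 249 ± 105 CPM after injury and 309 ± 178 CPM without it (edgeR adjusted p = 0.537).

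Within cell groups the order of the genes changed. In the 18 injured 1-month cells alone the 12 had rho values of 0.745 to 0.921, in the 18 1-year cells 0.222 to 0.804, and in the 11 L4 cells 0.433 to 0.884. Of the 12, 5 were again among the 12 highest in 1-month cells, 1 in 1-year cells and none in L4 cells. Atf3 had a rho of 0.508 over all 36 cells and 0.90 in L4 cells, and Tubb6, an injury-induced tubulin, 0.536 and 0.955. Atf3 was at 352 to 3630 CPM in the 7 cells and at no more than 196 CPM in the other injured cells.

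By list, 39 of 41 ranked regeneration-associated genes had a rho above 0 and 26 lay above the 95th percentile of all genes. Their median was 0.389, against -0.056 over all ranked genes, whose share above 0 was not computed. The list was drawn up with earlier results of these data known. Of the 7 cells with at least 1000 CPM of Sprr1a, 6 were 1-month L4 cells, so these values also hold the contrast of that group with the rest. Jun (0.319) and Gap43 (0.327), which mark injured and growing axons, were closer to the bulk than Gal (0.589). The 22 ranked factors and receptors had a median of 0.073, the 27 actin genes -0.047 and the 8 S100 genes -0.254. No other Sprr gene had counts in enough cells to be ranked.

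Markers of several cell classes had a negative median rho with Sprr1a, and those of peptidergic nociceptors had the lowest. The 4 peptidergic markers had a median rho of -0.299 and none was above 0; Calca, the CGRP gene, was at a median of 17 CPM in the 7 cells and 2150 CPM in the other 29. The 7 neurofilament markers had a median of 0.091, with 4 of them above 0. Nefh was at 662 to 8160 CPM in the 7 cells and at up to 6590 CPM in the other 29. The 5 ranked non-peptidergic markers had a median of -0.232. The 2 ranked markers of TH (tyrosine hydroxylase) neurons had a median of -0.283, also with none above 0. Satellite glia and Schwann cell markers, RNA of cells that wrap neurons, had medians of -0.249 and -0.228, and 3 ranked immune markers -0.229.

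Over the 18 low-input libraries the genes most like Sprr1a, by Pearson's r of log2 CPM, were Nts (0.986), Sox9 (0.981), Slc6a4 (0.981), Cckbr (0.980) and AC158982.1 (0.970). These values mostly restate the gap between conditions. Sox9, a factor of glia and chondrocytes, averaged 9.39 ± 2.74 CPM after injury and 0.0384 ± 0.115 CPM without it, and Slc6a4, the serotonin transporter, 30.1 ± 29.1 and 0.0971 ± 0.291 CPM (SD, n = 9 each). Nts and Cckbr stand in both rankings.

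AP-1 motifs were also looked for in the promoters of the genes most like Sprr1a in cells. RefSeq windows were found for 8 of the 12, and 3 of the 8 genes held one (4 of 11 windows, 36.4%, against 7.81% of all windows), a count too small to set apart. Their sites are printed beside those of Sprr1a above, with the motif in capitals and again 27 bases each.

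Nts, 207 bases before its start: actctttctgTGAGTCAgaaatcctga
Lipn, 148 bases before its start: caaacatcagTGAGTCAgccaaaatga
Ctla2a, 129 bases before its start: ccttgctgtaTGACTCAgcctgttcct

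They lie on chromosome 10 at 102490609 to 102490635 (Nts, minus strand), chromosome 19 at 34067200 to 34067226 (Lipn, plus strand) and chromosome 13 at 60936738 to 60936764 (Ctla2a, minus strand). Npy, the gene most like Sprr1a, held no AP-1 motif in its window. In the regeneration-associated list 3 of 32 genes with a window held one (7.32% of 41 windows), against 7.81% of all windows.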

How the data were processed

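Per the file header, the authors counted read pairs over exons of GENCODE vM16 genes and ERCC spike-ins with featureCounts 1.5.2, without strand, and deposited whole-number counts for 87 columns. Trim Galore and STAR (build mm10) are named in the submitters' processing notes. The 94 methylation samples were not analysed here. Of 136 RNA samples, several names were deposited more than once; each name is 1 library. Strand was not used, so overlapping genes cannot be told apart.

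Spike-ins were removed. CPM used counts outside CT010467.1. Low-input libraries were fitted together (6 groups) with edgeR 4.0.16 (TMM, filterByExpr, robust quasi-likelihood), 14212 genes tested, adjusted p below 0.05; DESeq2 1.42.0 was an alternative, and the alternatives in the closing section were each run singly. Cells needed 50000 counts; lower-depth cells were left out of shares. Likeness was Spearman's rho over injured cells. Sequences came from RefSeq promoters (GRCm38.p6). Named genes were the 12 highest and 5 lowest by rho, the 5 most like over libraries, and from each list all tested members up to 12, else the 4 with the largest log2 difference; any other is named for a stated reason or as background. The gene and the lists were chosen with earlier results of these data known. Injured and intact libraries of the same age and replicate number were compared by correlations of deviations. Values for 1-month libraries were 0.109, 0.371 and 0.328. Those of 8-month libraries were -0.432, -0.241 and -0.016, while 12-month libraries gave -0.085, -0.061 and 0.078. Whether a number marks a pair was not tested, since libraries of different numbers were not compared and the labels do not name the animal. The edgeR script was also run on simulated counts for 12 against 1 month in injured libraries, with an outcome that is not reported here.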

Additional observations from a re-analysis of the deposited data

Results flagged for a closer look

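Among the 8 intact 1-year cells, the only group of 4 to 10 cells, 1 cell lay apart from the rest in Sprr1a at 0.773 CPM, which is 3 counts and so at the limit that a count of 0 allows. How often such a gap is met by chance cannot be given, since the 8 values rest on 0 to 3 counts at unequal depths.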

How the results depend on the processing

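Age contrasts and interactions of Sprr1a passed the threshold under none of the alternatives run (edgeR with size factors, ERCC scaling, no filter, CT010467.1 left out, the replicate block, 18 left-out libraries, and DESeq2). ERCC scaling took the Sprr1a injury difference (log2) from 11.39 to 14.98 on average, and to 15.52, 13.71 and 15.72 at 1, 8 and 12 months, and turned the 12 minus 1 month interaction to 0.20. With 1 library left out, the Sprr1a differences ranged from 12.26 to 15.28 at 1 month and 9.67 to 12.54 at 8 months, 8 minus 1 month in injured libraries from -0.86 to 0.60, and the 12 minus 8 month interaction from -1.89 to 0.98. With the replicate block, that interaction was -0.001; genes called higher and lower on injury fell to 308 and 21 (from 726 and 152), cornified envelope calls to 0, and the 12 minus 8 month and joint interactions called 1 each; it changed no other call and moved no other count by over 1.5 times.

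Counts of calls moved most. ERCC scaling called 13492 higher and 1 lower; no filter 1322 and 400; DESeq2 475 lower; 56 to 420 lower with a library left out. For 8 minus 1, 12 minus 1 and 12 minus 8 months in injured libraries (32, 16 and 9 in edgeR), no filter called 234, 85 and 103, DESeq2 119, 55 and 57, ERCC scaling 5 and 3 for the first pair, and left-out libraries 17 to 39, 8 to 21 and 5 to 12. For the interactions 8 minus 1, 12 minus 1, 12 minus 8 and joint, no filter called 122, 121, 350 and 385, DESeq2 34, 33, 303 and 207, ERCC scaling 9, 42, 103 and 60, left-out libraries 0 to 10, 0 to 51, 0 to 79 and 0 to 20, and size factors 1 for the joint test. ERCC scaling called higher 1 other Sprr gene, 6 cornified envelope, 8 S100, 21 factor and 28 actin genes; no filter called 1 Sprr, 2 cornified and 5 actin genes; DESeq2 3 actin genes; left-out libraries 1 to 3 cornified (3 without the first intact 1-month library) and 1 to 3 actin genes (3 without the second intact 12-month or the second intact 8-month library). The count of 10 among the 12 genes most like Sprr1a was 9 to 12. The cause of these moves was not tested.

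In cells, with all gene counts as denominator the pooled levels of injured 1-month, injured 1-year and intact 1-month cells were 1090, 2.72 and 0.530 CPM, those of injured L4 and L5 cells 2470 and 0.446. Medians of cells were 7.34, 0, 0, 1430 and 0 CPM, and means 1740, 89, 23.6 and, for L4, 2840 CPM. At 500000 counts or more, the shares of at least 10 CPM were 0% in injured 1-year and intact 1-month cells, and of any count 100% in L4. Thinned to 50000 counts, shares with a count were 12.8% (injured 1-year), 8.66% and 1.05% (intact 1-month and 1-year) and 2.91% (L5). Without the cell of highest CPM, chosen after seeing the data, the pooled levels were 2.21 CPM (injured 1-year) and 0.111 CPM (intact 1-month, with 0% at 10 CPM). Of the 12 genes, 5, 1, 6 and 0 were again among the 12 in 1-month cells, 1-year cells, deeper cells and, added later, L4 cells.

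Intact levels of Sprr1a rest on 18 counts in 9 libraries, which limits the precision of fold changes, most of all at 1 month (2 intact counts). Shares of cells rest on 8 to 18 cells a group from an unknown number of animals.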
